A study of Mus musculus with 6 samples.

Results

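The genes described here are 10 genes of the unfolded protein response, the programme by which a cell adjusts its endoplasmic reticulum (ER) to the load of proteins it folds. They are the transcription factors Xbp1, Creb3l3 and Atf6, the sensor kinase Ern1, the chaperones and folding enzymes Hspa5, Pdia4, Dnajb9 and Sdf2l1, and the degradation factors Herpud1 and Edem1. The members were all probe sets annotated to 1 of these symbols and to no other gene, which gave 24 of the 34945 single-symbol probe sets on the array, and the 10 genes were among 18193 measured. Of the 24, 21 passed the filter on dim values, which asked for more than 4 on the log2 scale on 3 or more of the 6 arrays, and each of the 10 genes kept at least 1. The other 3, of Pdia4 and Ern1, lay between 2.04 and 2.37 on the log2 scale in all 6 livers, near background.

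The arrays measured whole-liver RNA 18 hours after a partial hepatectomy, in which most of the liver is cut away and the rest regenerates. The Cre plus livers (3 arrays, A, B and C) came from C57BL/6 mice with both Socs3 alleles floxed (Socs3 fl/fl) and a Cre recombinase transgene driven by the albumin promoter, which removes Socs3 in hepatocytes. The Cre minus livers (3 arrays, A, B and C) came from Socs3 fl/fl littermates without Cre, so both groups carry the floxed alleles and both had surgery. The age of the mice is not used here, and no liver from before surgery was analysed here. The labels do not say that each array is a separate mouse, so below a liver stands for the sample on a single array. For the same reason p-values cover the spread between these arrays only, and that spread may be technical.

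Socs3, a feedback inhibitor of JAK and STAT3 signalling, had log2 values of 7.44, 6.69 and 7.47 in Cre plus livers on its brightest probe set, against 9.09, 9.30 and 9.24 in Cre minus livers; values of single livers are given in the order A, B, C throughout. Hepatocyte transcripts dominated, with the mean of 8 hepatocyte markers between 13.82 and 14.01 in Cre plus and at 13.93 in each Cre minus liver. Over the 8554 genes tested, Cre plus arrays correlated with each other at 0.987 to 0.990 and Cre minus arrays at 0.995. Cre plus B correlated on average at 0.988 with the other Cre plus arrays and at 0.991 with the Cre minus arrays. With 3 arrays a group, the number of arrays sets the precision.

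In the unfolded protein response, IRE1, the product of Ern1, splices the Xbp1 transcript so that it encodes an active transcription factor. ATF6 is cut by proteases in the Golgi to release its active part, and CREBH, the product of the liver-enriched gene Creb3l3, is activated by the same proteases. XBP1 and ATF6 raise the transcription of chaperones such as BiP, the product of Hspa5, and of factors that remove misfolded proteins, while CREBH is known in mouse liver for acute phase and lipid genes. The arrays measure total transcript of each gene and tell nothing of splicing or of protein cleavage.

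Xbp1 was chosen for display because its values differed most between the groups. Hspa5, Herpud1 and Pdia4 were chosen because ATF6 and XBP1 are known to act on their promoters. The upstream sequences of these 4 members are shown. Each is the 250 bases before the gene's start in RefSeq (GRCm38.p6), 5′ to 3′ on the gene's strand: Xbp1 at chr11:5520391-5520640 on the plus strand, Hspa5 at chr2:34771840-34772089 on the plus strand, Herpud1 at chr8:94386179-94386428 on the plus strand and Pdia4 at chr6:47813513-47813762 on the minus strand. Capitals mark CCAAT and CCACG on either strand (ATTGG and CGTGG on the opposite one), both parts of the ER stress response element.
Xbp1: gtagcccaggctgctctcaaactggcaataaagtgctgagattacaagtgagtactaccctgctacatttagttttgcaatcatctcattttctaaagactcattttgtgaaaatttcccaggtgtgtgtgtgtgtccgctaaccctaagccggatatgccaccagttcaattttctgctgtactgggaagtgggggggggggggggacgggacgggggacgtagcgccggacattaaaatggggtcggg
Hspa5: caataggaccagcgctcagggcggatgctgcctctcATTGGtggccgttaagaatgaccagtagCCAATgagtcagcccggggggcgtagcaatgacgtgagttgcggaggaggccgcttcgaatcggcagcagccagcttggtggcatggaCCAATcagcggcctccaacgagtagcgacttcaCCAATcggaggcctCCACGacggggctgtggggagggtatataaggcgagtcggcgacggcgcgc
Herpud1: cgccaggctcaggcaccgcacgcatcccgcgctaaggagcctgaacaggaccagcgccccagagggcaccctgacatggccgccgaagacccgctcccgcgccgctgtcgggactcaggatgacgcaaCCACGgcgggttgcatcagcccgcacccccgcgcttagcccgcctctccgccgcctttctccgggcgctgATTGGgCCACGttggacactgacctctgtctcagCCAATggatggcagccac
Pdia4: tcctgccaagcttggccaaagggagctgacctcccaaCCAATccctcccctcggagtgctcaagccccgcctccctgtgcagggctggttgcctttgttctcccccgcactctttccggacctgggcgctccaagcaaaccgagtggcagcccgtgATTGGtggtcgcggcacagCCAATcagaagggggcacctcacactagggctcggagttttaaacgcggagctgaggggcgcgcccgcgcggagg

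The full element, CCAAT and CCACG with 9 bases between them on either strand, was found in Hspa5, where it begins 65 bases before the start, and in 0.113% of the 32851 RefSeq promoter windows of that length. The compact form, ATTGG and CCACG with 1 base between them, whose letters overlap a CCAAT and a CCACG, was found in Herpud1, 52 bases before the start, and in 0.0304% of all windows. Pdia4 held CCAAT on either strand and no CCACG, and these letters were not in the Xbp1 window. CCAAT alone was in 33.8% and CCACG alone in 28.3% of all windows. Neither TGACGTGG, an XBP1 and ATF6 element found in 0.563% of windows, nor TTCNNNGAA, the form that STAT proteins bind and found in 7.02%, was in the window of any of the 9 members with a RefSeq promoter. A match is a description of the sequence and not a measured site.

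Xbp1 was the member whose values differed most between the groups. All 3 Cre plus livers lay above all Cre minus livers on 3 of its 4 probe sets, by about the same amount on each, while none of the chaperone genes that it is known to activate was higher to a like extent. The 10 members split evenly, with 5 higher and 5 lower in value and a median log2 fold change of -0.0075, against a median of -0.0087 over all 8554 genes. None of the 10 passed limma's adjusted p under 0.05 over all genes, against 0.0234% of all genes, and 1, Xbp1, was past an unadjusted p under 0.05. That is 1 higher member, against 6.62% of all genes, and 0 lower members, against 8.21%. On the brightest probe sets the groups did not overlap for 1 higher member, against 9.21% of all genes. They did not overlap for 3 lower members, Pdia4, Sdf2l1 and Atf6, against 11.9%. A dimmer Atf6 probe set was higher without overlap.

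**Figure D1:**
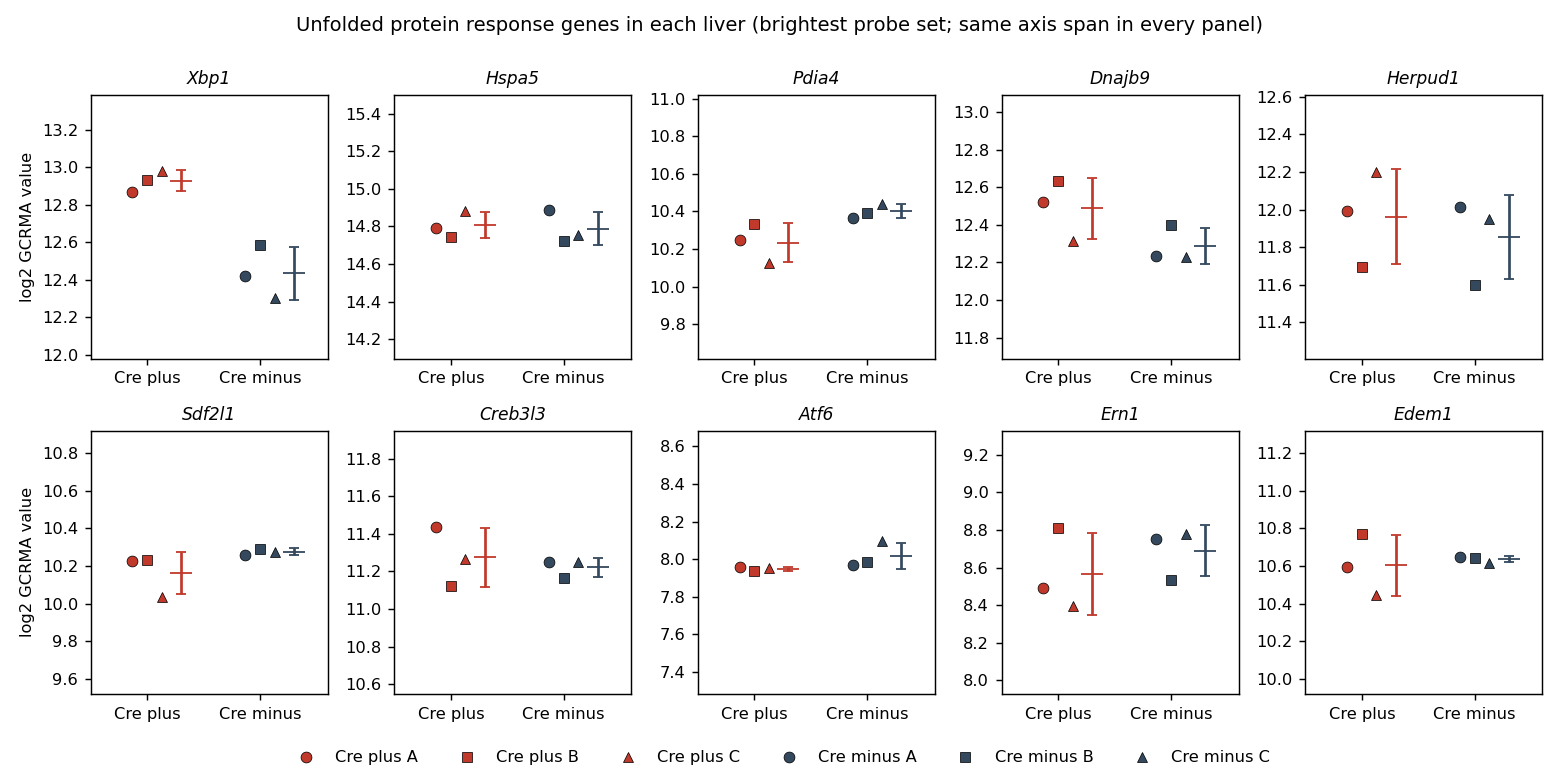
Log2 GCRMA value of the brightest probe set of each of the 10 genes (y axis, same span in every panel) in the 3 Cre plus and 3 Cre minus livers (symbols for A, B and C), with the mean and SD beside them. The Cre plus values of Xbp1 lie between 12.87 and 12.98, above all Cre minus values, and the largest gap of the other genes is smaller.

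The transcription factor Xbp1 lies on chromosome 11 (5520641 to 5525993, GRCm38.p6). Its brightest probe set had log2 values of 12.87, 12.93 and 12.98 in Cre plus livers, against 12.42, 12.58 and 12.30 in Cre minus livers. The lowest Cre plus value thus lay above the highest Cre minus value, and the Cre plus livers were close to each other, with a SD of 0.06 against 0.14 in Cre minus (n = 3 each). The log2 fold change was 0.49 ± 0.09 (SE), a 1.41-fold higher signal, with a 95% interval of 0.28 to 0.70 and limma's adjusted p = 0.120 over all genes. By p it ranked 96 of 8554 genes, and its fold change lay at percentile 97.0 of all genes. The exact permutation test gave p = 0.1, two-sided, the smallest that 3 arrays against 3 can give.

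The other probe sets of Xbp1 were read in the fit over all 15563 kept probe sets, of which 0.0129% passed an adjusted p under 0.05 and none was a member. The second brightest had log2 values of 11.98, 12.02 and 12.27 in Cre plus livers, against 11.58, 11.62 and 11.51 in Cre minus livers, a log2 fold change of 0.52 ± 0.09 (adjusted p = 0.154 by limma). The next had 11.33, 11.34 and 11.57 in Cre plus, against 10.92, 11.00 and 10.69 in Cre minus, a log2 fold change of 0.54 ± 0.11 (adjusted p = 0.198 by limma). Neither pair of groups overlapped, and Cre plus C was the highest liver on all 3 of these probe sets. The dimmest had 7.48, 7.50 and 7.49 in Cre plus, against 7.33, 7.50 and 7.49 in Cre minus, so 5 of the 6 livers were nearly equal on it (log2 fold change 0.05 ± 0.07). It is annotated to the same accession as the one before it, and that one and the brightest are of a kind that can bind related transcripts. In Cre plus B, the array closest to the littermates over all genes, Xbp1 lay 0.50 above the Cre minus mean on the brightest probe set, beside 0.43 for Cre plus A and 0.54 for Cre plus C.

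Ern1, the kinase and endoribonuclease that splices Xbp1, lies on chromosome 11 and had 3 kept probe sets. The brightest had log2 values of 8.49, 8.81 and 8.40 in Cre plus livers, against 8.75, 8.53 and 8.78 in Cre minus livers. The groups overlapped, with Cre plus B the highest of the 6 livers and Cre plus C the lowest (log2 fold change -0.12 ± 0.13, limma adjusted p = 0.693). On the next the log2 fold change was -0.01 ± 0.17. On the dimmest, close to the filter at 4.29 to 4.41 in Cre plus and 4.38 to 5.11 in Cre minus, it was -0.38 ± 0.18 (adjusted p = 0.435 by limma), and the groups overlapped.

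Atf6, on chromosome 1, encodes the sensor that becomes a transcription factor after cleavage, and its 3 kept probe sets did not point the same way. On the brightest the log2 values were 7.96, 7.94 and 7.95 in Cre plus livers, against 7.97, 7.99 and 8.10 in Cre minus livers, which do not overlap but differ by only -0.07 ± 0.06 (limma adjusted p = 0.615). The probe set of middle brightness had 7.62, 7.82 and 7.68 in Cre plus, against 8.04, 7.77 and 8.10 in Cre minus, a log2 fold change of -0.26 ± 0.11 with Cre minus B inside the Cre plus range. On the dimmest they were 6.78, 6.87 and 6.95 in Cre plus, against 6.68, 6.78 and 6.60 in Cre minus. The lowest Cre plus value lay just above the highest Cre minus value, and the log2 fold change was 0.18 ± 0.08. The adjusted p of the middle and dimmest probe sets was 0.375 and 0.381 by limma, so no direction is given for Atf6.

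**Figure D2:**
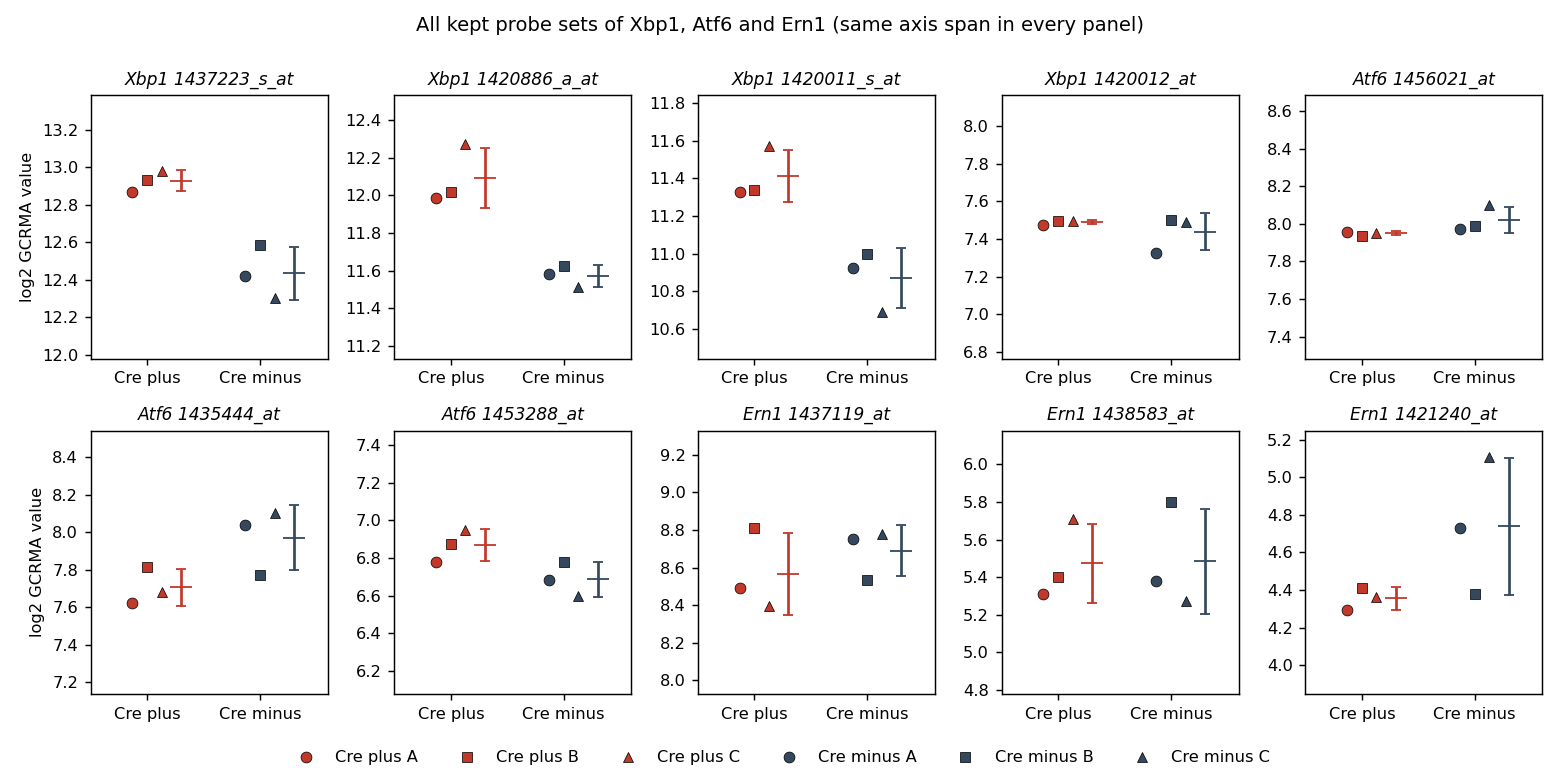
Log2 GCRMA values (y axis, same span in every panel) of the 4 Xbp1, 3 Atf6 and 3 Ern1 probe sets that passed the filter, in the 3 Cre plus and 3 Cre minus livers, with mean and SD. Of the 4 Xbp1 probe sets, 3 separate the groups and the dimmest, near 7.49, does not, while the Atf6 probe sets differ in direction.

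Creb3l3, on chromosome 10, encodes the liver-enriched factor CREBH and has 1 probe set. Its log2 values were 11.44, 11.12 and 11.26 in Cre plus livers, against 11.25, 11.16 and 11.25 in Cre minus livers. Cre plus livers lay on both sides of the narrow Cre minus range, Cre plus A above it and Cre plus B below it. The log2 fold change was 0.05 ± 0.09 (95% interval -0.17 to 0.28, limma adjusted p = 0.829), and without Cre plus A it was -0.03.

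Among the chaperones, Hspa5, on chromosome 2, encodes BiP, the main Hsp70 chaperone of the ER lumen and a binding partner of the stress sensors. Its log2 values were 14.79, 14.74 and 14.88 in Cre plus livers, against 14.89, 14.72 and 14.76 in Cre minus livers, and the groups overlapped fully. The log2 fold change was 0.02 ± 0.07 with a 95% interval of -0.16 to 0.19 (limma adjusted p = 0.938). The next probe set gave a log2 fold change of -0.02 ± 0.05 and the dimmest, near 7, gave 0.08 ± 0.08. The brighter 2 lay close to the top of the scale, whose highest value on any array was 15.74, where differences can be compressed.

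Pdia4, a protein disulfide isomerase on chromosome 6, had log2 values of 10.25, 10.33 and 10.12 in Cre plus livers, against 10.37, 10.39 and 10.44 in Cre minus livers. Every Cre plus liver was below every Cre minus liver, by little in Cre plus B, and the log2 fold change was -0.17 ± 0.07 (95% interval -0.34 to 0.01, limma adjusted p = 0.355). Sdf2l1, a small ER protein that works with BiP and its cochaperones and lies on chromosome 16, showed the same order. Its log2 values were 10.23, 10.23 and 10.03 in Cre plus, against 10.26, 10.29 and 10.28 in Cre minus. The log2 fold change was -0.11 ± 0.07 (limma adjusted p = 0.517), and it was -0.05 without Cre plus C, the liver lowest for both genes.

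Dnajb9 (ERdj4), a cochaperone of BiP on chromosome 12 that is among the best known targets of XBP1, was the member with the next highest fold change. Its log2 values were 12.52, 12.63 and 12.31 in Cre plus livers, against 12.24, 12.40 and 12.23 in Cre minus livers. Cre plus A and B lay above all Cre minus livers and Cre plus C did not, so the groups overlapped. The log2 fold change was 0.20 ± 0.10, a 1.15-fold higher signal (95% interval -0.05 to 0.45, limma adjusted p = 0.423). Cre plus C, the liver with the highest Xbp1, was the Cre plus liver with the lowest Dnajb9, Pdia4, Sdf2l1, Ern1 and Edem1 and with the highest Hspa5 and Herpud1.

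The degradation factor Herpud1, an ER membrane protein that joins the complex exporting misfolded proteins, lies on chromosome 8. Its log2 values were 11.99, 11.70 and 12.20 in Cre plus livers, against 12.01, 11.60 and 11.95 in Cre minus livers. In both groups array B was the lowest, and the groups overlapped (log2 fold change 0.11 ± 0.17, limma adjusted p = 0.794). The other probe set put the livers in nearly the same order and gave 0.07 ± 0.16. Edem1, on chromosome 6, recognises mannose-trimmed glycoproteins for degradation. Its log2 values were 10.60, 10.77 and 10.45 in Cre plus, against 10.65, 10.64 and 10.62 in Cre minus, so Cre plus livers lay on both sides of a tight Cre minus group (log2 fold change -0.03 ± 0.09, SD 0.16 in Cre plus and 0.02 in Cre minus). The SD was larger in Cre plus for 7 of the 10 members, against 63.1% of all genes.

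**Figure D3:**
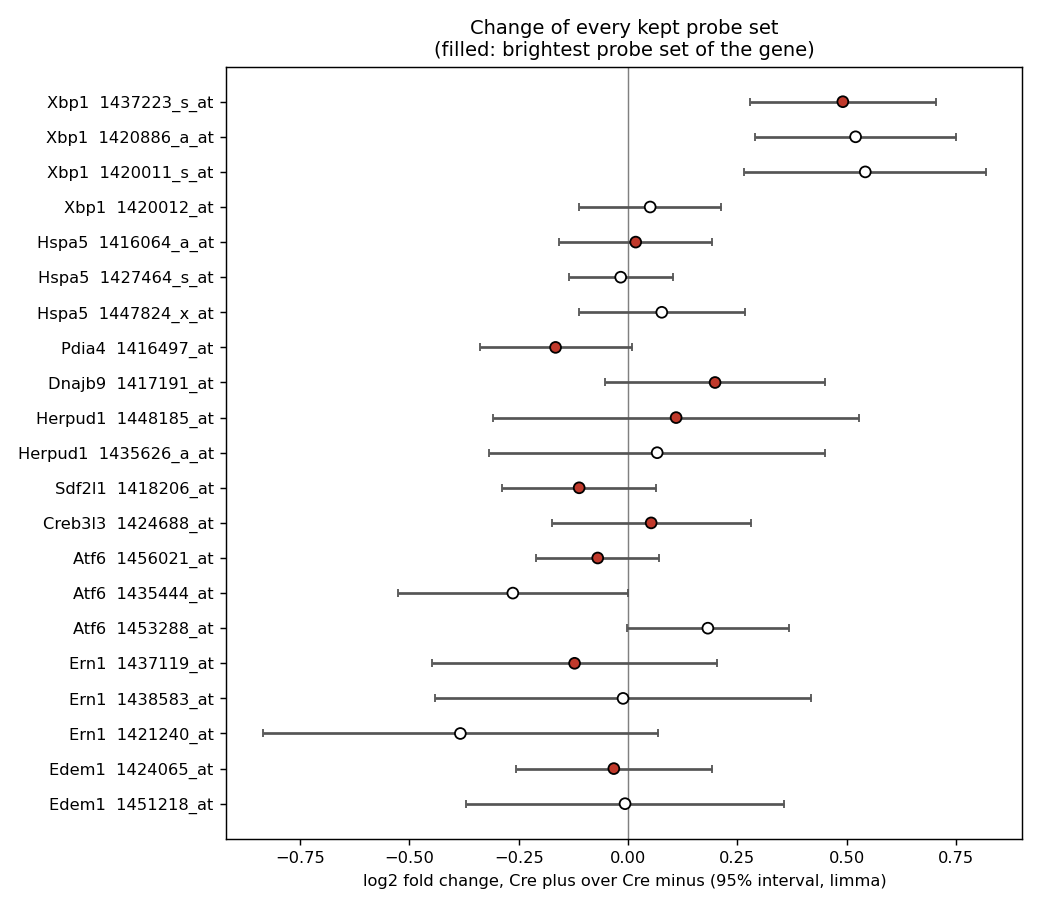
Log2 fold change of Cre plus over Cre minus (x axis) for each of the 21 kept probe sets, with limma's 95% interval, 3 arrays a group. The intervals of 3 Xbp1 probe sets lie above 0, from 0.27 at the lowest bound to 0.82 at the highest, and that of the second brightest Atf6 probe set ends just below 0.

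The change of Xbp1 was set against that of each of the other 9 members, array by array. For Hspa5 the difference of the log2 changes was 0.47, for Pdia4 0.66, for Sdf2l1 0.60, for Edem1 0.52 and for Creb3l3 0.44, each with an exact permutation p = 0.1, two-sided, which is 0.113 after adjustment over the 9 comparisons. For Herpud1 the difference was 0.38 (exact p = 0.3), and for Dnajb9 the difference was 0.29 (exact p = 0.1). All 9 share the same Xbp1 values, and Xbp1 was chosen with its values known, so they are not separate evidence that Xbp1 differed. With 3 arrays against 3 no such difference can reach p under 0.05.

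Of the other ER chaperones and folding enzymes, 30 of 30 listed genes were tested, 8 were higher and 22 lower in value, and the median log2 fold change was -0.03. None passed an adjusted p under 0.05 over all genes by limma, and 1 higher and 2 lower were past an unadjusted p under 0.05, against 14.8% of all genes in either direction. The smallest p belonged to Creld1 (-0.43 ± 0.11), followed by Sil1, a nucleotide exchange factor of BiP (-0.16 ± 0.06), the prolyl isomerase Fkbp14 (0.37 ± 0.15) and the J-domain protein Dnajc1 (0.16 ± 0.06). The median was -0.10 without Cre plus B, with 24 lower, -0.06 without Cre minus B, with 25 lower, -0.002 without Cre minus A, with 16 lower, and 0.01 without Cre plus C, with 14 lower.

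Of the ER-associated degradation genes 23 of 24 were tested, 12 higher and 11 lower in value, with a median of 0.00 that was -0.08 without Cre plus B. None passed over all genes. Past an unadjusted p under 0.05 by limma were 2 higher, against 6.62% of all genes, and 2 lower, against 8.21%. These were the ubiquitin-conjugating enzyme Ube2j1 (0.17 ± 0.06), the derlin Derl2 (-0.27 ± 0.10), Svip, an inhibitor of this pathway (-0.36 ± 0.14), and Herpud2, a relative of Herpud1 (0.22 ± 0.09). Derl2, a channel component, had all Cre plus livers below all Cre minus livers. Its log2 values were 11.23, 11.35 and 10.99 in Cre plus, against 11.50, 11.43 and 11.44 in Cre minus.

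Genes of translocation into the ER, signal peptide cleavage and N-glycosylation had 18 higher and 10 lower of 28 tested among 30 listed. Their median was 0.03, and 46.5% of all genes were above 0. None passed over all genes. Past an unadjusted p under 0.05 were 2 higher, against 6.62% of all genes. They were Srp19 (0.30 ± 0.09) and Srp68 (0.21 ± 0.07). Both are subunits of the signal recognition particle, as is Srp72 (0.14 ± 0.08), and the next by p was the oligosaccharyltransferase subunit Stt3a (0.16 ± 0.11). Without Cre plus B the list had 13 higher and a median of -0.03, and the median was 0.08 without Cre plus A, 0.06 without Cre plus C and 0.04 without Cre minus C.

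Genes of the COPII coat and of export from the ER had 16 higher and 2 lower of 18 tested among 20 listed, with a median of 0.05. Over all genes 46.5% had a fold change above 0. None of the list passed an adjusted p under 0.05 over all genes by limma. Past an unadjusted p under 0.05 were 2 higher, against 6.62% of all genes, and 1 lower, against 8.21%. The inner coat subunit Sec23b had log2 values of 10.36, 10.63 and 10.76 in Cre plus livers, against 10.30, 10.29 and 10.24 in Cre minus livers (0.30 ± 0.11). Preb, the exchange factor that recruits the coat, had 0.16 ± 0.06 and the outer coat subunit Sec31a 0.14 ± 0.07. Sar1b, a GTPase of the coat, was lower (-0.18 ± 0.06), while its relative Sar1a was higher without overlap (0.13 ± 0.08). The list had 11 higher and a median of 0.02 without Cre plus B, and a median of 0.085 without Cre plus A and 0.081 without Cre minus A.

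Among the other sensors, their proteases and partners, 14 of 18 listed genes were tested, 10 higher and 4 lower in value (46.5% of all genes were above 0), with a median of 0.10 that was 0.06 without Cre plus A. None passed over all genes by limma, and 3 higher were past an unadjusted p under 0.05, against 6.62% of all genes. Creb3l2, a relative of Creb3l3, had a log2 fold change of 0.62 ± 0.14 (limma adjusted p = 0.183). Its log2 values were 6.92, 6.71 and 6.70 in Cre plus livers, against 5.87, 6.22 and 6.38 in Cre minus livers. Nfyb, a subunit of the factor that binds the CCAAT part of the stress element, had 0.45 ± 0.12 (limma adjusted p = 0.196). Its log2 values were 8.52, 8.73 and 8.29 in Cre plus, against 8.10, 8.02 and 8.06 in Cre minus. Neither pair of groups overlapped. The other listed subunits of the CCAAT-binding factor, Nfya (-0.01 ± 0.05) and Nfyc (-0.18 ± 0.11), were lower in value with overlapping groups. The ER membrane protein Wfs1 had 0.60 ± 0.24, and Eif2ak3, which encodes the sensor PERK, had 0.21 ± 0.11.

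All 10 listed Creb3l3 target genes were tested, 4 higher and 6 lower in value, with a median of -0.23 that was -0.05 when Cre plus B was left out and -0.15 when Cre plus C was. None passed over all genes by limma. Past an unadjusted p under 0.05 were 1 higher, against 6.62% of all genes, and 1 lower, against 8.21%. Hamp, the iron hormone hepcidin, had 15.15, 15.09 and 15.14 in Cre plus livers, against 15.03, 14.92 and 14.97 in Cre minus livers (0.16 ± 0.06). G6pc, which releases glucose, had 10.29, 10.52 and 10.26 in Cre plus, against 10.66, 10.78 and 11.15 in Cre minus (-0.51 ± 0.14). The apolipoproteins Apoa4 (-0.93 ± 0.39) and Apoc2 (-0.26 ± 0.12) were lower in value with overlapping groups, and Apoa4 was lowest in Cre plus B, at 10.52. Cidec, a lipid droplet protein named after its values were seen, was 4.09 in Cre plus B and between 6.86 and 7.51 in the other 5 livers.

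**Figure D4:**
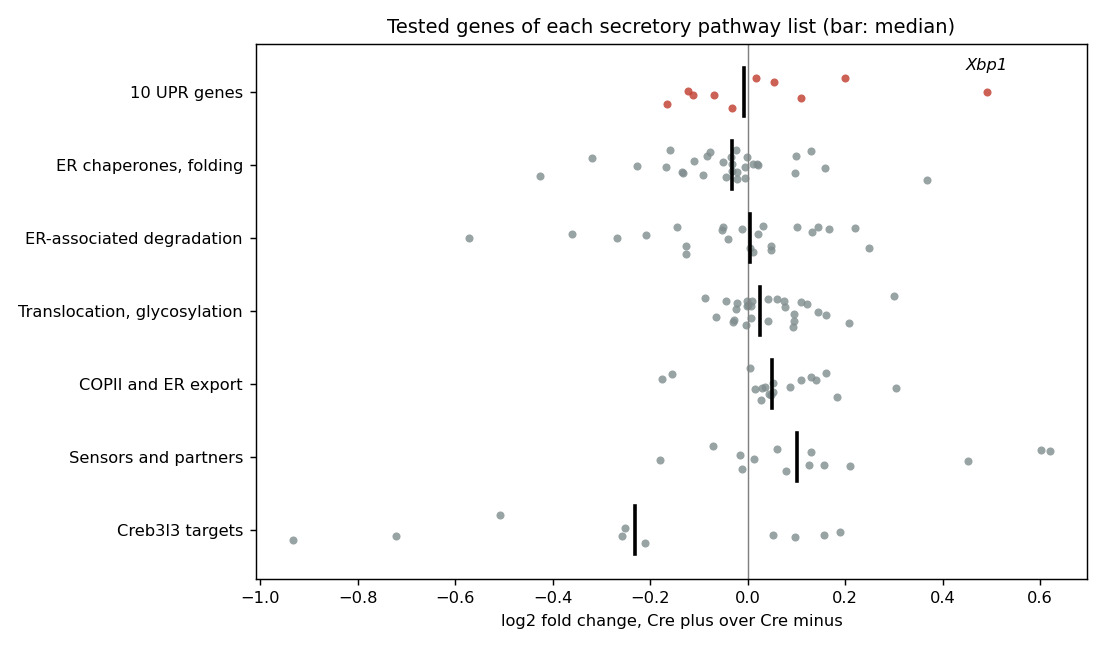
Log2 fold change of Cre plus over Cre minus (x axis) for the tested genes of the 10 members and of 6 further lists, 1 point a gene, with the median as a bar. The medians lie between -0.23 for the Creb3l3 targets and 0.10 for the sensors and partners, and Xbp1, at 0.49, stands to the right of the other members.

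Markers of other cell types were read beside these values, since secretory cells other than hepatocytes also express these genes. Fewer cells of a type and less RNA per cell cannot be told apart in whole liver. The Kupffer cell and macrophage markers were lower in value in Cre plus for 11 of 11 tested, led by Tyrobp (-0.41 ± 0.07), and the mean of 12 markers was 7.12 to 7.31 in Cre plus and 7.52 to 7.62 in Cre minus. Sinusoidal endothelial markers were lower for 8 of 10, led by Fcgr2b (-0.54 ± 0.09), while Lyve1 was higher in value with overlapping groups (0.91 ± 0.56). The mean of the 11 listed markers was 6.72 to 6.85 in Cre plus and 6.83 to 6.91 in Cre minus. The part of these cells in the values of Xbp1 or the chaperones was not tested. The plasma cell markers Jchain, between 2.54 and 2.59, and Mzb1, between 2.10 and 2.12, were at the level of dim probe sets in all 6 livers. Of the B and plasma cell markers 1 of 7 passed the filter, Sdc1, which hepatocytes also express (0.29 ± 0.12). The neutrophil marker S100a8 was high in Cre plus A, at 10.10, and between 8.19 and 8.54 in the other 5 livers. Stellate cell markers had 3 higher and 5 lower of 8 tested, led by Reln (0.16 ± 0.15), the 1 tested biliary marker was Sox9 (0.38 ± 0.23), and none of the T and NK cell markers passed the filter. Among the hepatocyte markers 3 were higher and 5 lower, led by Cps1 (-0.50 ± 0.18).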

How the data were processed

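Total RNA of whole liver (2 ug per array) was hybridised to Affymetrix Mouse Genome 430 2.0 arrays, per the labels. The deposited values are log2 values from GCRMA, per the submitters' processing notes, which as given here name no version. GCRMA corrects for background by probe sequence, equalises the arrays' distributions and combines the probes of a set, so values near the bottom carry little signal and their fold changes are compressed. Array medians lay between 2.98 and 3.02.

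The table holds 45101 probe sets, of which 64 control probe sets were left out. Symbols came from the platform annotation, updated by Entrez ID against RefSeq (GRCm38.p6), and 0 changed. Kept were 15563 probe sets above 4 (log2) on 3 or more of the 6 arrays, and a gene was read from its brightest kept single-symbol probe set (8554 genes). The groups were compared by limma 3.58.1 (R 4.3.3), lmFit and eBayes, two-sided, with no block and Benjamini-Hochberg adjustment. Fold changes are given as log2 ± SE and group spreads as SD. The fit was tested on simulated data.

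The members and lists were chosen with earlier results of these data known. Named are all members and Socs3, from each pathway list the 4 genes with the smallest p and any past the threshold, and from each marker list the one with the smallest p. Defining markers and S100a8 are named as such. Lyve1 and Cidec fall outside this rule, as do Nfya, Nfyc and Sar1a, which are given beside their relatives. The letters A, B and C were not taken to pair the samples in the main fit. Same-letter correlations of deviations from the group means were -0.15, -0.10 and 0.02. With so few arrays a group, these values cannot decide whether the letters pair the samples. The alternatives are other scalings, filters, priors, choices of probe set, array weights, a replicate block and each array left out.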

Additional observations from a re-analysis of the deposited data

How the results depend on the processing

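None of the 10 members passed an adjusted p under 0.05 over all genes under any of the 15 alternatives. The fold change of Xbp1 stayed between 0.40 (mean of probe sets) and 0.57 (without Cre minus B), with adjusted p between 0.0711 (filter at 6) and 0.384 (without Cre minus A). Members at an unadjusted p under 0.05 numbered 1 in most alternatives and 2 with no filter, with array weights and when single arrays were left out (range 1 to 2), the second being Pdia4 or, without Cre plus C, Dnajb9. The members' median lay between -0.029 and 0.020 with an array left out. Over all genes 2 passed, 0 with no filter, 56 with the filter at 6, 0 with the replicate block and 0 to 13 with an array left out (13 without Cre plus B). With the replicate block Xbp1 had an adjusted p = 0.268, and Xbp1 stayed the 1 member at an unadjusted p under 0.05.

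Fold changes close to 0 turned sign in some alternatives, none of them past the threshold, and the cause was not tested. With an array left out, Creb3l3 ranged from -0.029 (without Cre plus A) to 0.13, Hspa5 from -0.020 (without Cre plus C) to 0.068, Herpud1 from -0.018 (without Cre minus B) to 0.24 and Edem1 from -0.12 to 0.046 (without Cre plus C). Hspa5 was also -0.017 without Cre minus B, and Herpud1 -0.0098 without Cre plus C. The second brightest probe set of Herpud1 ranged from -0.044 to 0.20, that of Ern1 from -0.13 to 0.15 and that of Edem1 from -0.17 to 0.094, and the dimmest of Xbp1 from -0.0059 to 0.081. The second probe set of Edem1 was 0.0017 with a common median or quantile normalization. The other 144 gene and 254 probe set values kept their direction and side of the threshold. The number of arrays and the low signal of some Ern1 probe sets limit what can be called.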
